A study of Mus musculus with 4 samples.

Results

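The genes described here encode the matrix that fills the space between brain cells, and its condensed form, the perineuronal net. They were taken by symbol and not by a cut on their levels, although earlier results of these data were known. They are the 4 lecticans Acan, Bcan, Ncan and Vcan and the 4 link proteins Hapln1, Hapln2, Hapln3 and Hapln4. Tenascin-R (Tnr) and the hyaluronan synthase Has2 are the other members. All 10 were found among the 22036 entries that carry an Ensembl identifier, and all 10 passed the filter of a mean of 0.1 FPKM, Has2 only narrowly. Transcript levels came from RNA sequencing of pieces of brain holding the parasubthalamic nucleus, a small glutamatergic cell group at the edge of the posterior lateral hypothalamus. All 4 libraries were from naive C57BL/6 mice and formed 1 group, replicates 1 to 4; the labels name no transgene, allele or treatment, and no stressed animals were sequenced. The animals' age, and any pooling of tissue, is not given in the sources used here. With no second group, genes were compared within libraries and libraries with one another. Nothing states that the samples came from separate animals, so a p-value covers the spread of these 4 samples, which need not be that between animals. Levels of regional markers differed widely between the samples, as given below.

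Perineuronal nets are lattices that wrap the cell body and proximal dendrites of certain neurons, best known from parvalbumin-positive, fast-firing cells. Hyaluronan, a long sugar chain extruded at the cell surface by the synthases, forms the backbone. Lecticans are chondroitin sulfate proteoglycans that bind hyaluronan at one end and tenascin-R at the other, and link proteins lock lectican and hyaluronan together. A looser matrix of the same components surrounds synapses and the nodes of Ranvier, where Hapln2 and a splice form of Vcan are known residents.

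Levels are in FPKM, that is, fragments per kilobase of transcript per library depth, which lets genes of different length be set side by side. The spacing of low values implied about 19400000 to 21000000 fragments per library. The step was sought only within a preset range, and the best one was taken. Between 28.5% and 31.8% of the low values lay within 0.05 of a whole step, where some would lie by chance. All fragment numbers given below rest on this estimate and are approximate. Summed levels of general neuronal markers were alike in all libraries, at 1901 to 2075 FPKM, and markers of astrocytes summed to 1091 to 1175 FPKM. Single neuronal genes varied more, up to Map2 at 92.1 to 124 FPKM and Syt1 at 133 to 178 FPKM. Replicate 1 stood apart in a list of 8 markers of caudal hindbrain and spinal cord, which summed to 23.7 FPKM there and to 0.0745 to 0.361 FPKM elsewhere. Markers of other regions also varied. Hypothalamic markers summed to 69.4 FPKM in replicate 3 and 439 to 555 FPKM in the others. Those others were not alike: Hcrt stood at 7.72 FPKM in replicate 2 but at 119 and 91.4 FPKM in replicates 1 and 4. In replicate 2, 4 of the 6 hypothalamic markers were highest. Thalamic markers summed to 409 FPKM in replicate 3 and 170 to 251 FPKM in the others. Calb2, a large part of that sum, was lowest in replicate 3, at 137 FPKM against 153 to 226 FPKM. The other 5 thalamic markers were highest there. Dopamine neuron markers summed to 689 FPKM in replicate 2 and 316 to 360 FPKM in the others. Astrocyte, oligodendrocyte, microglial and endothelial markers were all present, and these levels are of mixed tissue, not of neurons.

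Promoter sequence is shown for the gene that led the set, for the steadiest and the scarcest lectican, and for the link protein that varied most. These are the 250 bases before the start of each gene in RefSeq (GRCm38.p6), 5′ to 3′ on the gene's own strand, with CG dinucleotides in capitals. Bcan lies at chr3:88000357-88000606 on the minus strand, Ncan at chr8:70120845-70121094 on the minus strand, Acan at chr7:79052976-79053225 on the plus strand and Hapln2 at chr3:88027512-88027761 on the minus strand.
Bcan: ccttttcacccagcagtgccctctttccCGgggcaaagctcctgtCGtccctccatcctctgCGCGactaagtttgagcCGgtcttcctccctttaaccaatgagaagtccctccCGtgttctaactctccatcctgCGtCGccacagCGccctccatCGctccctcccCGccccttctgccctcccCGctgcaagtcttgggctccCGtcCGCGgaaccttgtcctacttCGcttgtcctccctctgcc
Ncan: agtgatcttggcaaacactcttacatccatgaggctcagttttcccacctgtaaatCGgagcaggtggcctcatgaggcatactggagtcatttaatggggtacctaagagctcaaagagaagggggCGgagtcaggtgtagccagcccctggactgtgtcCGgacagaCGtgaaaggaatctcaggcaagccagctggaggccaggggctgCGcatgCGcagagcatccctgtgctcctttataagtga
Acan: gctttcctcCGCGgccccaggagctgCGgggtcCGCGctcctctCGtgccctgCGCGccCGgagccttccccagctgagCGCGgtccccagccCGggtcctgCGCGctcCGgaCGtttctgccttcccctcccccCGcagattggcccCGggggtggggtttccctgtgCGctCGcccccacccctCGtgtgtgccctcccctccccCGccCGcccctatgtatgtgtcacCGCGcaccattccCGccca
Hapln2: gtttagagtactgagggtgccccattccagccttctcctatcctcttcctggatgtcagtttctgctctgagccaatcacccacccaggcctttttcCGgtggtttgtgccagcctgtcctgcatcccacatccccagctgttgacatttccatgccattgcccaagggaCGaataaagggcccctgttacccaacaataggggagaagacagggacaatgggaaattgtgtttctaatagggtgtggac

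The window of Acan held 26 CG dinucleotides, more than 90.4% of 32851 RefSeq promoter windows of the same length, and that of Bcan held 16, more than 74.6%. The Ncan window held 6, equal to the median of all windows, and the Hapln2 window held 2. Of 8 members with a window in the table, the others held 10 (Vcan), 8 (Hapln3), 2 (Hapln1) and 2 (Tnr). The order of CG content was not the order of levels given next: the lectican with the lowest level had the most. The TATA motif TATAAA, searched on both strands, was found in the windows of Ncan and Hapln3 and in 12.4% of all windows. The motif ACAAAG, a core of SOX factor sites, was found on either strand in the window of Tnr alone among the members and in 16.5% of all windows. Windows depend on the annotation: against GENCODE M21, those of Acan and Bcan lie upstream of the gene's start, those of Ncan and Hapln2 overlap the gene's first bases, and that of Hapln1 lies wholly inside the gene.

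Brevican was the dominant lectican of this tissue and aggrecan, the lectican by which nets are usually recognised, was the scarcest. Bcan, which encodes the short brain-specific lectican brevican, stood at 69.1, 72.4, 73.2 and 66.6 FPKM in replicates 1 to 4. No library was far from the others, and the mean of 70.3 ± 3.05 FPKM (SD, n = 4) lay at percentile 94.7 of the 17630 entries tested. Ncan, the gene of neurocan, which is made by neurons and astrocytes and is most abundant in the young brain, stood at 10.3, 10.1, 10.2 and 9.999 FPKM. Its mean was 10.1 ± 0.114 FPKM. The SD of its log2 level between libraries, 0.02, was below that of all 200 genes nearest to it in level, whose median was 0.12.

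Vcan, the gene of versican, a lectican of oligodendrocyte precursors and nodes, stood at 1.39, 1.89, 2.03 and 2.17 FPKM, a mean of 1.87 ± 0.339 FPKM. Replicate 1 was the low library, and the other 3 lay close together at 2.03 ± 0.140 FPKM. Acan stood at 1.05, 0.970, 0.748 and 0.814 FPKM, a mean of 0.895 ± 0.138 FPKM at percentile 24.6. Replicates 1 and 2 were above replicates 3 and 4. These values stand for about 107 to 162 Acan fragments per library. Of the summed lectican level, Bcan made up 84.5% ± 0.577 (SD, n = 4), Ncan 12.2% ± 0.435, Vcan 2.25% ± 0.425 and Acan 1.08% ± 0.175. Because the 4 transcripts differ in length, the share of Bcan was 68.2% and that of Acan 2.04% when values were multiplied back by length.

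**Figure D1:**
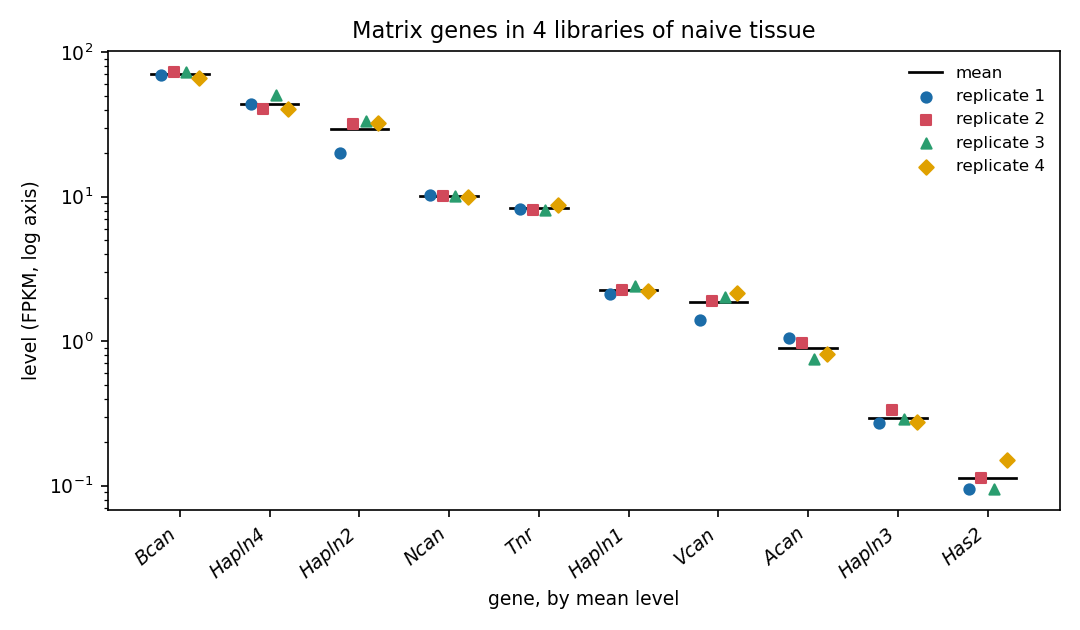
Level of each matrix gene in FPKM (log axis) in the 4 libraries (points), with the mean (bar), ordered by mean level. Bcan, Hapln4 and Hapln2 lie between 19.9 and 73.2 FPKM, Ncan and Tnr between 8.08 and 10.3 FPKM, and the other members at or below 2.40 FPKM.

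Among the link proteins, Hapln4 and Hapln2 carried nearly the whole level. Hapln4, also called Bral2, is a link protein of perisynaptic nets that binds brevican. It stood at 43.9, 40.03, 50.2 and 40.3 FPKM, a mean of 43.6 ± 4.72 FPKM (SD, n = 4) at percentile 90.6. Replicate 3 was its highest library. Hapln2, also called Bral1, is made by oligodendrocytes and organises the matrix of the nodes. It stood at 19.9, 31.6, 33.3 and 32.2 FPKM, a mean of 29.2 ± 6.28 FPKM at percentile 86.0. Replicate 1 lay far below the other 3, which averaged 32.4 ± 0.872 FPKM.

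Hapln1, the cartilage link protein Crtl1, whose loss weakens perineuronal nets, stood at 2.12, 2.27, 2.40 and 2.23 FPKM, a mean of 2.25 ± 0.118 FPKM. Its log2 SD of 0.07 was larger than that of 3.50% of 200 genes of like level, so it was steady between libraries. Hapln3 stood at 0.270, 0.335, 0.288 and 0.277 FPKM, about 18.6 to 23.0 fragments per library, a mean of 0.292 ± 0.0292 FPKM. Of the summed link protein level, Hapln4 made up 58.1% ± 5.89 (SD, n = 4), Hapln2 38.5% ± 5.98, Hapln1 3.004% ± 0.172 and Hapln3 0.390% ± 0.0503. The Hapln2 share was 30.1% in its lowest library, replicate 1, and 42.9% in its highest. Summed over each family, lecticans stood at 83.2 ± 3.06 FPKM and link proteins at 75.4 ± 8.23 FPKM, a ratio of 1.11 ± 0.104.

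Tenascin-R and the hyaluronan synthases complete the lattice. Tnr, a glycoprotein trimer that crosslinks lecticans and is made largely by oligodendrocytes and some neurons, stood at 8.18, 8.08, 8.13 and 8.70 FPKM, a mean of 8.27 ± 0.289 FPKM. Replicate 4 was slightly above the others. Has2 stood at 0.0949, 0.112, 0.0952 and 0.151 FPKM, a mean of 0.113 ± 0.0263 FPKM, or about 7.84 to 12.8 fragments per library. The span of a gene on the opposite strand, Has2os, overlaps that of Has2. Use of strand in the counting is not given in the sources used here. Spans include introns and shared exons were not checked, so whether these genes share reads is not known. The same holds for other members whose spans overlap other genes: Tnr overlaps 3 (2 on its own strand), Vcan 2 and Hapln1 1 on the opposite strand, and Ncan 1 on its own strand. The other synthases, which are not members, were above Has2 in every library: Has1 lay between 0.473 and 0.701 FPKM and Has3 between 0.277 and 0.456 FPKM.

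By mean level the order was Bcan, Hapln4, Hapln2, Ncan, Tnr, Hapln1, Vcan, Acan, Hapln3 and Has2, and each neighbouring pair kept its order in 4 of 4 libraries. The ranges of neighbours overlapped for Hapln1 and Vcan, whose ratio ran from 1.03 to 1.52, and for no other pair. An exact sign permutation over 4 libraries cannot give a two-sided p below 1 in 8, so single pairs were tested in a fit across all genes instead. There limma tested the within-library difference of each gene from a chosen gene, on log2(FPKM + 0.1), where the added 0.1 shrinks the differences of low genes. The close neighbours Ncan and Tnr differed there by a log2 difference of -0.29 (SE 0.05, limma adjusted p = 0.00399) for Tnr against Ncan, and Tnr was lower in 4 of 4 libraries; 61.8% of all genes tested were lower than Ncan. Multiplied back by transcript length the sign turned, to 0.47.

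Acan was taken as the reference because it defines the classical net. Of the 9 other members, 7 were higher than Acan and 2 were lower, where 70.8% of all genes tested were higher and 20.0% were lower. The members' counts are near those shares, and the median member lay at percentile 48.6 of all entries by level. Bcan was 71.2-fold higher (log2 difference 6.15, SE 0.12, limma adjusted p = 2.40e-06), Hapln4 44.1-fold and Hapln2 29.1-fold. Ncan was 10.3-fold higher, Tnr 8.47-fold, Hapln1 2.38-fold and Vcan 1.97-fold (log2 difference 0.98, SE 0.20, limma adjusted p = 0.00688), each in 4 of 4 libraries. Hapln3 and Has2 were 2.52-fold and 4.66-fold lower on this scale, each in 4 of 4 libraries. The sizes depended on the scale: multiplied back by length, Bcan was 33.3-fold, Hapln4 23.9-fold, Hapln2 10.1-fold, Tnr 15.2-fold and Vcan 3.47-fold higher, and Has2 11.6-fold lower. With a pseudocount of 1, Bcan was 37.7-fold, Hapln4 23.5-fold, Hapln2 15.7-fold, Ncan 5.88-fold and Tnr 4.90-fold higher, and Has2 1.70-fold lower.

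Each lectican gene lies beside a link protein gene in the mouse genome, an arrangement that dates from duplications of an ancestral pair. In GENCODE M21 on GRCm38, Acan (chr7:79053483-79115099, plus strand) and Hapln3 (chr7:79115102-79131018, minus strand) converge with 2 bases between their ends. Ncan (chr8:70093085-70120873, minus strand) and Hapln4 (chr8:70083457-70090862, plus strand) converge across 2222 bases. Vcan (chr13:89655312-89742509, minus strand) and Hapln1 (chr13:89539796-89611652, plus strand) converge across 43659 bases. Bcan (chr3:87987531-88000230) and Hapln2 (chr3:88021750-88027583) both lie on the minus strand, 21519 bases apart. The annotation places 0 genes between the partners of any pair.

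Partners differed in level in 3 of the 4 pairs, with the link protein higher in 1 and lower in 2. Most of all genes tested also differed from each of the 4 lecticans, by the shares given below, so this count is not particular to the pairs. Hapln4 exceeded its neighbour Ncan by 3.97-fold to 4.94-fold in single libraries, with a log2 difference of 2.09 (SE 0.07, limma adjusted p = 8.73e-06). Of all genes, 31.2% were higher than Ncan and 61.8% lower. Multiplied back by length, the difference of Hapln4 from Ncan was 1.12, or 2.17-fold. Hapln2 was below its neighbour Bcan by 2.07-fold to 3.47-fold, with a log2 difference of -1.29 (SE 0.15, limma adjusted p = 0.000497), and 93.7% of all genes were lower than Bcan and 4.54% higher. The largest ratio was that of replicate 1, and without that library the difference was -1.12. Hapln3 was below Acan by 2.60-fold to 3.89-fold, with a log2 difference of -1.34 (SE 0.12, limma adjusted p = 0.000276), which was -2.62 without length correction and -0.55 with a pseudocount of 1. Of all genes, 20.0% were lower than Acan and 70.8% higher.

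Hapln1 was above Vcan in 4 of 4 libraries but the difference did not pass, at 0.28 (SE 0.15, 95% interval -0.12 to 0.67, limma adjusted p = 0.139); 60.5% of all genes were higher than Vcan and 28.6% lower. On values multiplied back by length, Hapln1 was below Vcan at -0.83 (limma adjusted p = 0.00767). Vcan has 9 annotated transcripts of very different length, so its level depends on which of them the authors' length correction assumed. Since the Acan and Hapln3 transcripts end 2 bases apart, reads at those ends may be shared if strand was not used.

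**Figure D2:**
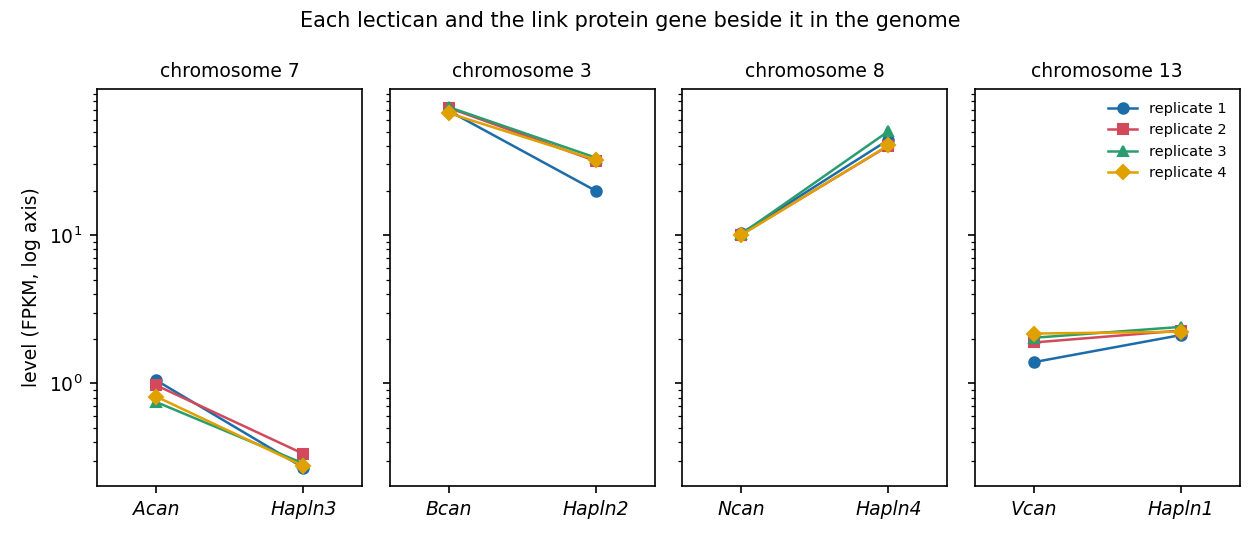
Level in FPKM (log axis) of each lectican (left point) and its neighbouring link protein (right point) in each library, 1 line per library. Hapln4 lies above Ncan in 4 of 4 libraries, Hapln2 and Hapln3 lie below Bcan and Acan in 4 of 4, and Hapln1 and Vcan lie within 1.52-fold of each other.

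Between libraries, on the log2(FPKM + 0.1) scale, Hapln2 and Vcan varied most and Ncan and Tnr least. On FPKM itself the coefficient of variation was 23.3% for Has2, from very few fragments, 21.5% for Hapln2 and 18.2% for Vcan. Hapln2 had a log2 SD of 0.35, larger than that of 97.5% of 200 genes of like level, and Vcan one of 0.27, larger than 67.0%. Without replicate 1 these SDs were 0.04 and 0.10, so that library set both. In replicate 1 Hapln2 was 0.70 log2 units below the mean of the others, and Vcan 0.51 below. The oligodendrocyte markers moved the same way: 8 of 8 were lower there than the mean of the others, by a median of 0.47, and their summed level was 5564 FPKM against 6442 to 8098 FPKM. None of these markers was at 0 in any library. In replicate 2 the directions parted: 7 of 8 oligodendrocyte markers were lower, by a median of 0.15, while Hapln2 was at 0.19 and Vcan at 0.04. Divided by the mean log2 level of the oligodendrocyte markers, the log2 SD of Hapln2 was 0.18 in place of 0.35, and that of Vcan 0.12 in place of 0.27. Divided by the precursor list, which includes Olig1, Olig2, Sox10 and Gpr17, they were 0.34 and 0.25. With the microglial markers they were 0.26 and 0.20, and with the fast-firing neuron markers 0.29 and 0.29. With the astrocyte markers they were 0.40 and 0.32. In tissue, fewer cells of a type and less RNA per cell cannot be told apart, and the part of oligodendrocytes in these differences was not tested.

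The caudal markers given above, a list chosen with earlier results of these data known, were highest in replicate 1 as well, 8 of 8. So were the 5 fibroblast genes Col1a1, Col1a2, Col3a1, Dcn and Lum of the mural cell and fibroblast list. The mural genes of that list were not: Rgs5 stood at 31.0 FPKM in replicate 1 and 32.1 to 34.5 FPKM in the others, and Pdgfrb at 4.45 FPKM and 4.39 to 5.12 FPKM. Microglial markers were lower in replicate 1 for 5 of 6 genes, by a median of 0.18. Their part in the Hapln2 and Vcan values was not tested either. Tnr, although also a product of oligodendrocytes, was at -0.02 in replicate 1 and its log2 SD was 0.05. Bcan was at -0.03 and Ncan at 0.03 in that library. The medians of the astrocyte markers were steady in the same libraries, at -0.04 to 0.05, but single genes varied more. The most variable, Slc1a3, stood at 55.7 FPKM in replicate 3 and at 74.3 to 78.6 FPKM in the others.

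Acan varied in another order, though less than most genes of like level. Its log2 SD of 0.20 was larger than that of 24.5% of 200 such genes, whose median was 0.30. Against the mean of the other libraries, its log2 difference was 0.29, 0.15, -0.29 and -0.15 for replicates 1 to 4. Markers of fast-firing neurons, among them parvalbumin and the potassium channel gene Kcnc1, had medians of -0.17, 0.26, 0.37 and -0.27 in the same order. Acan was thus lowest in the library where their median was highest. The list was split: 5 of its 8 genes were highest in replicate 3 and 3 in replicate 2. In replicate 3, 2 of them were lower than the mean of the others. All 8 of these markers were higher than Acan, as were 70.8% of all genes tested, and their summed level lay between 231 and 321 FPKM. Pvalb itself stood at 51.6, 77.2, 80.8 and 56.0 FPKM. All 5 fibroblast genes were also higher in replicates 1 and 2 than in 3 and 4, Dcn for example at 26.6, 25.4, 14.3 and 14.1 FPKM, while Rgs5 was highest in replicate 3. The medians of the astrocyte markers ranked the libraries as Acan did, with smaller differences, at 0.05, 0.03, -0.04 and -0.03. The part of the fibroblast and astrocyte genes in the Acan values was not tested. Hapln4 was highest in replicate 3, at 0.28, where the medians of the thalamic, fast-firing, oligodendrocyte and endothelial markers were also highest. Its log2 SD of 0.15 was 0.07 without that library. Divided by the mean log2 level of those lists, in the same order, the log2 SD of Hapln4 was 1.16, 0.21, 0.27 and 0.14. The part of those markers was not tested.

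**Figure D3:**
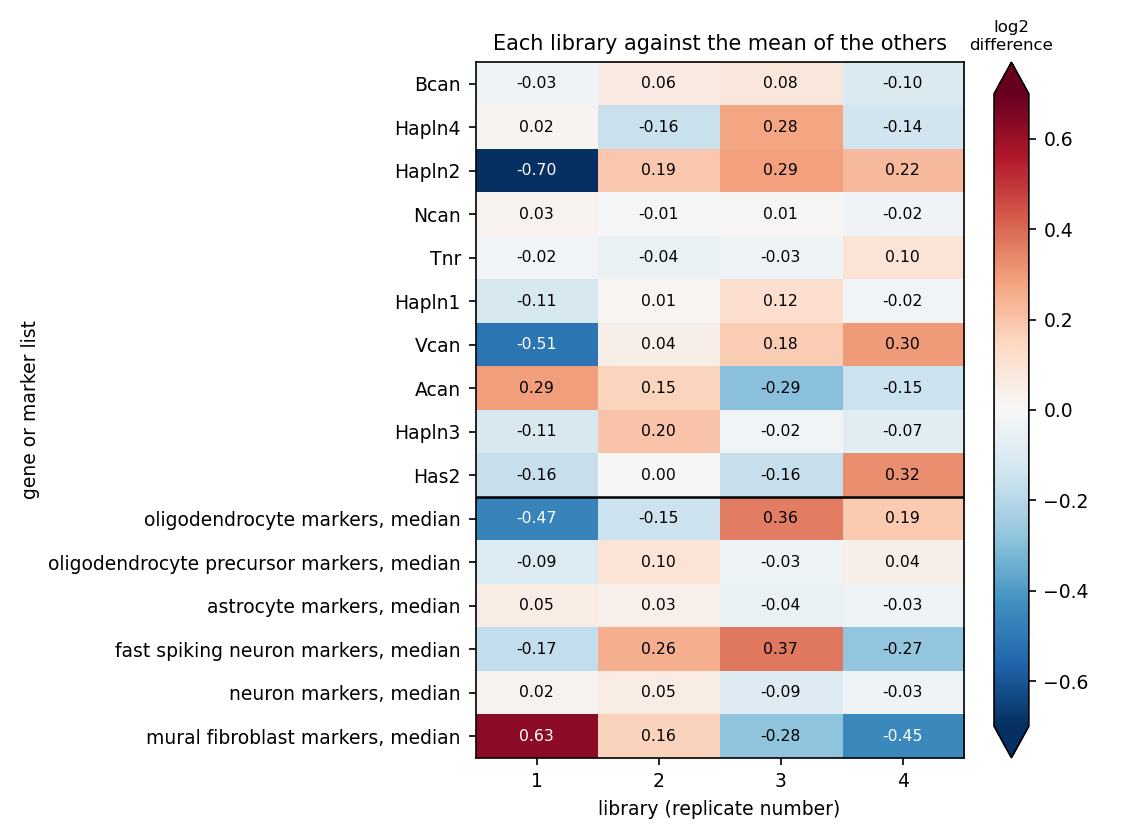
Difference of each library from the mean of the other 3 on the log2(FPKM + 0.1) scale, for the 10 members (above the line) and for the median gene of 6 marker lists (below it). In replicate 1, Hapln2 at -0.70, Vcan at -0.51 and the oligodendrocyte markers at -0.47 are low together, while Ncan and Tnr stay within 0.10 of 0 in every library.

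Genes with the most similar pattern over the 4 libraries were sought for the 3 members with the largest log2 range among those at 0.5 FPKM or more in every library, which leaves out Has2 and Hapln3. The measure was the root mean square difference of centred log2 levels, among genes at 1 FPKM or more whose range was at least 0.75 of the member's. For Hapln2 the nearest of 1855 genes were a locus without an Ensembl identifier, Cabyr at 0.03 and Daam2 at 0.03. For Vcan the nearest of 2849 were another such locus, Hs3st4 at 0.02 and Spata24 at 0.03. For Acan, with 5019 genes compared, Tmem47 and Fam174b were among the nearest, at 0.01 each. Over only 4 libraries many genes match a pattern closely, and these values describe likeness in these samples alone.

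The wider matrix pathway was described with 79 further genes in 6 lists, of which 75 passed the filter. Against Acan, 54 were higher, 13 lower and 8 did not pass, beside the same 70.8% and 20.0% of all genes. The partners of lecticans and tenascins were led by Cntn1, the contactin that binds tenascin-R, at 73.1 ± 1.35 FPKM (SD, n = 4), Cspg5, the neuroglycan C gene, at 48.9 ± 5.50 and Ptprz1, the phosphacan gene, at 32.4 ± 1.52. In that list 8 of 11 tested were higher than Acan and 2 lower. Tnc, the tenascin of the young and injured brain, did not pass, at 0.741 ± 0.375 FPKM (log2 difference -0.32, limma adjusted p = 0.342). Its level was 1.301 FPKM in replicate 3, and without that library it passed as lower, at -0.67 (limma adjusted p = 0.00843).

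The hyaluronan genes were the lowest list, with a median of 0.623 FPKM, against 4.90 FPKM for all entries tested. Of 12 tested, 4 were higher than Acan, 6 lower and 2 did not pass, beside 70.8% higher and 20.0% lower among all genes tested. Ugdh, which makes the UDP-glucuronic acid that the synthases use, led at 12.4 ± 0.709 FPKM. Hyal2, a hyaluronidase, followed at 7.16 ± 0.462 and Cd44, a hyaluronan receptor, at 1.74 ± 0.326. Has1 passed as lower than Acan at -0.46 (SE 0.12, limma adjusted p = 0.0171) but not without replicate 1 (-0.43), 2 (-0.47) or 4 (-0.38). Has3 was lower at -1.08 (SE 0.11, limma adjusted p = 0.000404). The sperm hyaluronidase Spam1 was listed at 0 in 4 of 4 libraries.

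Of the enzymes that build chondroitin sulfate chains, 17 of 20 tested were above Acan and 1 was lower. Most genes were above Acan: 70.8% of all genes tested were higher and 20.0% lower. B3gat3, which completes the linker that joins chain to protein, led at 81.6 ± 2.08 FPKM, followed by the polymerising factor Chpf at 38.5 ± 3.40 and the sulfotransferase Chst12 at 11.9 ± 1.10. Chst3, which adds the 6-sulfate that is scarce in adult nets, stood at 1.22 ± 0.270 FPKM and did not pass against Acan. Of the 13 proteases tested, 8 were higher than Acan and 3 lower, beside the same shares of all genes. Adamts4, an aggrecanase that cuts lecticans, led them at 8.70 ± 2.11 FPKM. It stood at 5.66 FPKM in replicate 1 and 8.91, 9.88 and 10.3 FPKM in the others, so its low library was that of Hapln2. Mmp24 stood at 8.57 ± 0.924 and Mmp17 at 7.87 ± 1.49 FPKM. Mmp9, a protease that acts on nets, was at 1.12 ± 0.569 FPKM, highest in replicate 1 at 1.92.

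The inhibitors Timp2, Timp3 and Timp4 had higher mean levels than any protease of the list. Timp2 was at 162 ± 19.6 FPKM, Timp3 at 34.6 ± 0.641 and Timp4 at 11.7 ± 1.21. Of the 5 inhibitors, 4 were higher than Acan, beside 70.8% of all genes tested. Of 14 receptors and ligands of nets, 13 were higher than Acan and 0 lower by limma, and 1 did not pass, beside the same 70.8%. Nptxr, the neuronal pentraxin receptor, led at 39.4 ± 8.53 FPKM, Ptprs, a receptor for chondroitin sulfate, stood at 31.9 ± 2.79 and Nptx1 at 15.4 ± 2.45. Otx2, a homeoprotein that nets take up from outside the cell, stood at 2.16, 2.64, 3.33 and 2.22 FPKM.

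**Figure D4:**
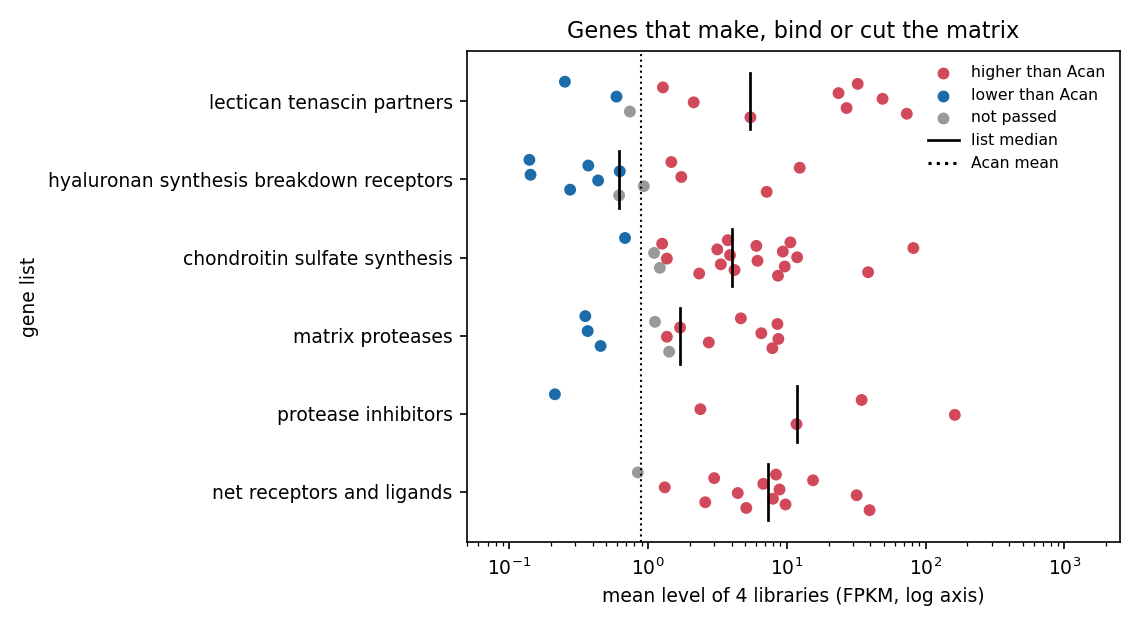
Mean level of 4 libraries in FPKM (log axis) for the 75 pathway genes tested, 1 row per list, with the list median (solid bar) and the mean of Acan (dotted line). Colour gives the limma call against Acan: 54 genes were higher, 13 lower and 8 did not pass. Among all genes tested, 70.8% were higher than Acan and 20.0% lower.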

How the data were processed

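RNA from 4 brain tissue samples was extracted with TRIzol and made into libraries with an mRNA kit, per the labels. GRCm38 is the build, per the submitters' processing notes; aligner, counter, annotation and strand use: not given in the sources used here. Deposited by the authors, the values behave as FPKM, although no header or label names the unit. One column is headed with the letter C, and its sample, replicate 3, was taken from the title.

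Symbols, coordinates and lengths came from GENCODE M21. Of 25044 entries, 17630 with a mean of at least 0.1 were kept, as log2(FPKM + 0.1). With limma 3.58.1 in R 4.3.3, each of 17629 genes was compared with Acan, Bcan, Ncan or Vcan within libraries (intercept only, two-sided, Benjamini-Hochberg adjusted, threshold 0.05). The prior's degrees of freedom were capped at 1.63, the estimate from single-gene levels. The procedure was tested on simulated data. Alternatives changed the pseudocount, filter, length correction, scaling, prior and libraries. Other steps used matplotlib 3.10.9, pandas 2.3.3, numpy 2.4.6 and Python 3.11.15.

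Members, lists and tests were chosen with earlier results of these data known. The genes named by rule are the members, the 3 highest of each pathway list and the 3 nearest patterns, of which 1 is not reported here; markers stand beside results, and any other gene was picked once its values were known.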

Additional observations from a re-analysis of the deposited data

Results flagged for a closer look

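By Dixon's test, 2 of 31 values tested (6.45%) had 1 library standing apart, where chance gives about 5%. Hapln2 had 19.9 FPKM in replicate 1, against 31.6 to 33.3 FPKM in the remaining libraries. Tnr had 8.70 FPKM in replicate 4, against 8.08 to 8.18 FPKM.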

How the results depend on the processing

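The counts of members above and below Acan were 7 and 2 in every setting that could be fitted; with a filter of a mean of 1 FPKM Acan itself fell out, so that count was not run. Leaving out each library in turn gave -1.41 to -1.24 for Hapln3 against Acan, -1.37 to -1.12 for Hapln2 against Bcan, 2.02 to 2.13 for Hapln4 against Ncan and 0.18 to 0.35 for Hapln1 against Vcan, with no change of call. On values multiplied back by transcript length, Hapln1 against Vcan turned to -0.83, Tnr against Ncan turned to 0.47, and 6 of 10 members kept their rank. That change follows from lengths of 2338 bases (Hapln2) to 12427 bases (Vcan). Over 29 single genes against Acan and 10 alternatives, 286 of 290 values kept their call, and the exceptions were Has1 (3) and Tnc (1). The SDs without single libraries were an alternative chosen after seeing the data. No paired analysis was possible because the libraries form 1 group, so no groups share replicate numbers; genes were compared within libraries instead. Levels of Has2 and Hapln3 rest on few fragments per library, which limits their precision.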
